A study of Mus musculus with 6 samples.

Results

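A set of 10 genes of the interleukin-1 (IL-1) family and the NLRP3 inflammasome were followed: the ligands Il1a, Il1b, Il18 and Il33, the receptor antagonist Il1rn, the receptors Il1r1 and Il1r2, and the inflammasome genes Nlrp3, Casp1 and Gsdmd. They were chosen by gene symbol, and all 10 were found among the 54532 genes of the deposited expression table. IL-1α and IL-1β bind the receptor IL1R1 and signal through MYD88, whereas IL-1 receptor antagonist occupies the same receptor without signalling and IL1R2 captures ligand as a decoy. IL-1β and IL-18 are made as inactive precursors that caspase-1 cleaves inside inflammasomes, and the same protease cuts gasdermin D, which then forms the membrane pore through which the cytokines leave the cell. Myeloid cells are the classical source of IL-1β, and epithelial cells are among the sources of IL-1 receptor antagonist and IL-33. T cells are better known as responders that carry receptors for IL-18 and IL-33.

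The libraries held RNA of mouse T cells collected after co-culture with the ovarian cancer line ID8, which is of mouse origin. T cells were isolated with a pan T-cell kit from spleens of C57BL/6 mice aged 6 to 8 weeks, kept with IL-2 at 10 ng/mL and activated beforehand by anti-CD3 and anti-CD28 magnetic beads over 72 h. In 3 libraries the ID8 cells had been pretreated with 40 µM cisplatin (cisplatin), and in 3 they had received PBS (control), so all 6 libraries share the activation, IL-2 and contact with ID8 cells. Neither labels nor methods say whether libraries of a group came from separate mice, and p-values therefore measure the spread between these libraries only. The question addressed is how T cells differ after meeting tumour cells that had been exposed to cisplatin.

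Values were FPKM (fragments per kilobase, scaled to the size of the library), which permits comparison between genes. Whole reads could be rebuilt from them, giving 30606569 to 32169496 reads on genes per library. Genes averaging 0.5 FPKM or more over the 6 libraries were compared with limma on log2(FPKM + 0.1), which left 15874 genes. A gene passed at an adjusted p under 0.05 and was called at an additional 2-fold change. Of all tested genes, 27.5% passed as higher and 29.0% as lower in the cisplatin libraries, while 4.11% were called higher and 12.8% called lower.

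The libraries labelled T cells held markers of other cells as well. All 24 T-cell markers were detected, and their summed level was 1898 to 2023 FPKM in control and 3009 to 3075 FPKM in cisplatin libraries, with 23 markers passing as higher and Themis as lower. Of 15 ID8 tumour cell markers, 12 were tested and all 12 were called lower, and the summed level was 1627 to 1706 FPKM in control against 243 to 251 FPKM in cisplatin libraries. Krt19 was the highest of them, at a mean of 646 FPKM in control libraries and 52.9 FPKM in cisplatin libraries. Krt7, Muc16 and Igfbp5 were too low to test. Igfbp5 overlapped between groups, with means of 0.0754 FPKM in control and 0.0511 FPKM in cisplatin libraries, whereas Krt7 and Muc16 did not overlap and were lower. All 10 B-cell markers passed as higher, with sums of 1717 to 1806 and 3665 to 3736 FPKM. For 17 macrophage and monocyte markers the sums were 94.9 to 100.4 and 165 to 186 FPKM. Of 13 tested markers, 11 passed as higher, Cd14 passed as lower and Cd68 did not pass. Lyz2 was the highest of the list, at a mean of 30.8 FPKM in control and 89.7 FPKM in cisplatin libraries. No list other than that of dendritic cells (Cd209a) had a marker at 0 in all 6 libraries. In such bulk samples, fewer cells of a type and less RNA per cell cannot be told apart.

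Promoter sequences from RefSeq (GRCm38.p6) were matched by symbol for 9 of the 10 genes, in 14 windows of 300 bases reaching from 250 bases before to 50 bases after a transcription start. Gsdmd had no match. The 250 bases before the start are printed, 5′ to 3′ on the gene's own strand, for the genes that passed the test, so that the regulatory sequence can be read beside the expression values. The windows are chr2:24336610-24336859 on the plus strand for the upstream start of Il1rn, chr2:129371140-129371389 on the minus strand for Il1b and chr9:5298267-5298516 on the plus strand for Casp1. Capitals mark an AP-1 motif.
Il1rn: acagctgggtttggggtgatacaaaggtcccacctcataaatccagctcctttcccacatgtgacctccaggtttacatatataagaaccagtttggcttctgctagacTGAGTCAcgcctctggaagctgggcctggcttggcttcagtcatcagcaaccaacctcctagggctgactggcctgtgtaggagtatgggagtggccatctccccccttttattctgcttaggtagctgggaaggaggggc
Il1b: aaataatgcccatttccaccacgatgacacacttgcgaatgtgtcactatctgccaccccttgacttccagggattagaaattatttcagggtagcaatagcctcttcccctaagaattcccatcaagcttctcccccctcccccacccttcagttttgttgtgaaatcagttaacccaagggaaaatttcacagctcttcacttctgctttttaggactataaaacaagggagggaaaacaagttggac
Casp1: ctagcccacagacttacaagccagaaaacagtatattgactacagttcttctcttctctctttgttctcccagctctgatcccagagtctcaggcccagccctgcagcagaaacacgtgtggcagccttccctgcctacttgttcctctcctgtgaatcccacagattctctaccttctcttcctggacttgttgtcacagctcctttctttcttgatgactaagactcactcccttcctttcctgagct

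Both strands of each 300-base window were searched for 4 motifs. The AP-1 motif (TGANTCA) stood 141 bases before the upstream start of Il1rn and 12 bases before the start of Il1a, and 7.81% of 32851 promoter windows held it. The GAS motif of STAT factors (TTCNNNGAA, 8.3% of windows) was found 111 bases before the start of Il1r2. The kappaB motif (8.46% of windows) was found 186 bases before an Nlrp3 start and 232 bases before the downstream Il1r1 start. The interferon-stimulated response element core (GAAANNGAA, 8.56% of windows) was in none of the 14 windows. No motif overlapped another, and the windows of Il1b and Casp1 held none of the 4. The Il1rn windows beginning at chr2:24345041 and chr2:24345121 held none either.

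The members did not move together. Of the 9 genes tested, Il1b and Casp1 rose, Il1rn and Gsdmd fell, and 5 did not pass. Only the falls of Il1rn and Gsdmd reached 2-fold, so that 2 of 9 were called lower and 0 called higher, beside the 12.8% and 4.11% of all tested genes. Of the 9, 2 passed in each direction, beside 27.5% higher and 29.0% lower. Groups did not overlap for 6 of the 9, where 64.2% of all tested genes also had groups that did not overlap. The median log2 fold change of the 9 was 0.52, beside 0.03 over all tested genes.

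**Figure D1:**
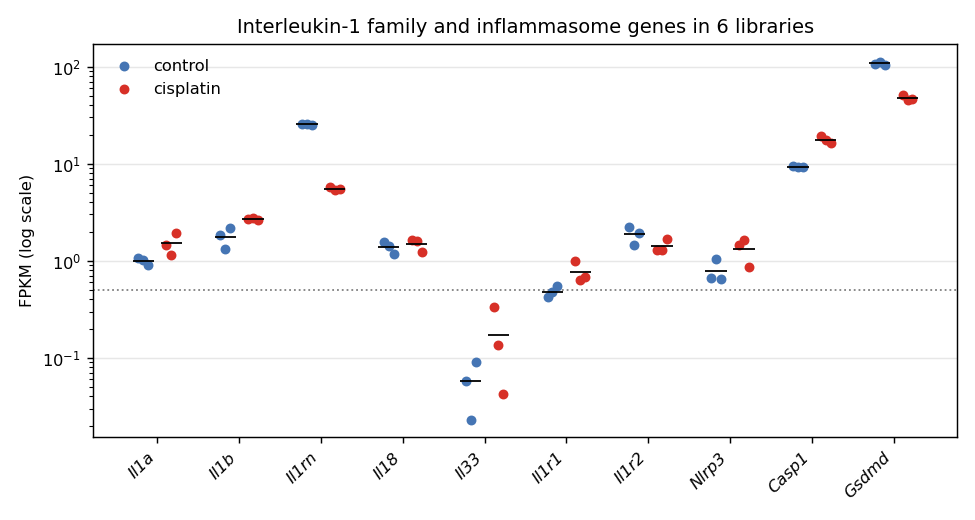
Expression of the 10 genes in every library, on a log axis of FPKM, with a bar at the mean of each group of 3 libraries and a dotted line at 0.5 FPKM, the mean needed for testing. Il1rn and Gsdmd sit lower and Casp1 sits higher in the cisplatin libraries, whereas Il33 lies far below the other genes.

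Il1rn (ENSMUSG00000026981, chr2:24336853-24351494, plus strand), the gene of the IL-1 receptor antagonist, showed the largest difference among the members. Its level was 25.6, 25.9 and 25.3 FPKM in control libraries 1 to 3 and 5.69, 5.33 and 5.54 FPKM in cisplatin libraries 1 to 3. All cisplatin libraries were far below all control libraries, and the spread within each group was small. Il1rn fell by 2.19 on the log2 scale (SE 0.04, 95% interval -2.29 to -2.09, adjusted p = 1.41e-07), a level 4.57-fold higher in control. Between 978 and 4299 reads lay behind each value. The ID8 marker sum moved in the same direction, as given above, and its part in the fall of Il1rn was not tested.

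Il1b (ENSMUSG00000027398, chr2:129364570-129371139, minus strand), the gene of secreted IL-1β, was low in both groups. It measured 1.85, 1.33 and 2.15 FPKM in control libraries and 2.71, 2.75 and 2.62 FPKM in cisplatin libraries. The cisplatin libraries were close to each other and above every control library. Il1b rose by 0.60 log2 units (SE 0.17, 95% interval 0.18 to 1.02, adjusted p = 0.0243) on 76 to 174 reads per library. It did not pass after leaving out any single cisplatin library (adjusted p = 0.0587 to 0.0697), nor after each library was centred on the mean log2 level of its T-cell markers (0.06 log2 units, adjusted p = 0.77). The macrophage and monocyte marker sum moved in the same direction, though not every marker did, and its part in this rise was not tested.

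Il1a (ENSMUSG00000027399, chr2:129299610-129309972, minus strand), which encodes the other IL-1 receptor agonist, measured 1.08, 1.01 and 0.908 FPKM in control and 1.46, 1.15 and 1.92 FPKM in cisplatin libraries. The groups did not overlap, although cisplatin library 2 lay close to control library 1. The difference of 0.52 log2 units (95% interval 0.02 to 1.03) did not pass (adjusted p = 0.0747). Without cisplatin library 2 it passed, at 0.69 log2 units (adjusted p = 0.0322). Exons of Il1a share 222 bases with Gm14023 and those of Il1b share 25 bases with Il1bos, both on the opposite strand, and reads there cannot be told apart unless counting used the strand.

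Il18 (ENSMUSG00000039217, chr9:50554827-50581840, plus strand) encodes a cytokine that raises interferon-γ production in T cells. It measured 1.55, 1.42 and 1.17 FPKM in control and 1.65, 1.58 and 1.23 FPKM in cisplatin libraries, on 37 to 55 reads. The groups overlapped. The difference was 0.10 log2 units (95% interval -0.32 to 0.51, adjusted p = 0.669), and changes within that interval remain possible.

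Il33 (ENSMUSG00000024810, chr19:29925114-29960718, plus strand), an alarmin of epithelial and stromal cells, was below the limit for testing. It measured 0.0577, 0.0231 and 0.0903 FPKM in control and 0.332, 0.136 and 0.0428 FPKM in cisplatin libraries. These values rest on 5, 2 and 8 reads and on 31, 13 and 4 reads, and the groups overlapped. A fit over all genes with any read gave 0.66 log2 units (95% interval -0.43 to 1.75, adjusted p = 0.403).

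The receptors were weakly expressed and neither passed. Il1r1 (ENSMUSG00000026072, chr1:40225080-40317257, plus strand), the signalling receptor, measured 0.419, 0.472 and 0.548 FPKM in control and 1.01, 0.635 and 0.684 FPKM in cisplatin libraries. All cisplatin libraries were above all control libraries, with cisplatin library 1 well above the others. The difference was 0.58 log2 units (95% interval -0.09 to 1.24, adjusted p = 0.121). Il1r2 (ENSMUSG00000026073, chr1:40074079-40125231, plus strand), the decoy receptor, measured 2.25, 1.45 and 1.93 FPKM in control and 1.30, 1.28 and 1.67 FPKM in cisplatin libraries. The groups overlapped through control library 2. The difference was -0.37 log2 units (95% interval -0.84 to 0.09, adjusted p = 0.148), and it passed without control library 2, at -0.54 log2 units (adjusted p = 0.0484).

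Nlrp3 (ENSMUSG00000032691, chr11:59541568-59566956, plus strand), the sensor that nucleates the inflammasome, measured 0.665, 1.04 and 0.651 FPKM in control and 1.47, 1.63 and 0.859 FPKM in cisplatin libraries. Cisplatin library 3 fell among the control libraries, and the groups overlapped. The difference of 0.67 log2 units (95% interval -0.05 to 1.38) did not pass (adjusted p = 0.1). Without cisplatin library 3 it was 0.93 log2 units (adjusted p = 0.0301).

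Casp1 (ENSMUSG00000025888, chr9:5298517-5307265, plus strand), the gene of caspase-1, was higher in every cisplatin library. It measured 9.59, 9.16 and 9.27 FPKM in control and 19.1, 17.5 and 16.3 FPKM in cisplatin libraries. The groups were widely separated on 411 to 927 reads per library. Casp1 rose by 0.91 log2 units (SE 0.06, 95% interval 0.75 to 1.06, adjusted p = 3.46e-05), or 1.87-fold, just under the 2-fold limit. T-cell, B-cell and macrophage marker sums moved in the same direction. Centred on T-cell markers, Casp1 still passed as higher, by 0.37 log2 units (adjusted p = 0.00351).

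Gsdmd (ENSMUSG00000022575, chr15:75862327-75867408, plus strand), which encodes the pore protein gasdermin D, was the most abundant member in both groups and moved opposite to Casp1. It measured 107, 112 and 105 FPKM in control and 51.6, 45.1 and 46.8 FPKM in cisplatin libraries. No cisplatin library came near the control range, and 3555 to 7998 reads lay behind each value. Gsdmd fell by 1.18 on the log2 scale (SE 0.05, 95% interval -1.31 to -1.04, adjusted p = 5.15e-06), a level 2.26-fold higher in control. ID8 markers fell with it, and their part was not tested.

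**Figure D2:**
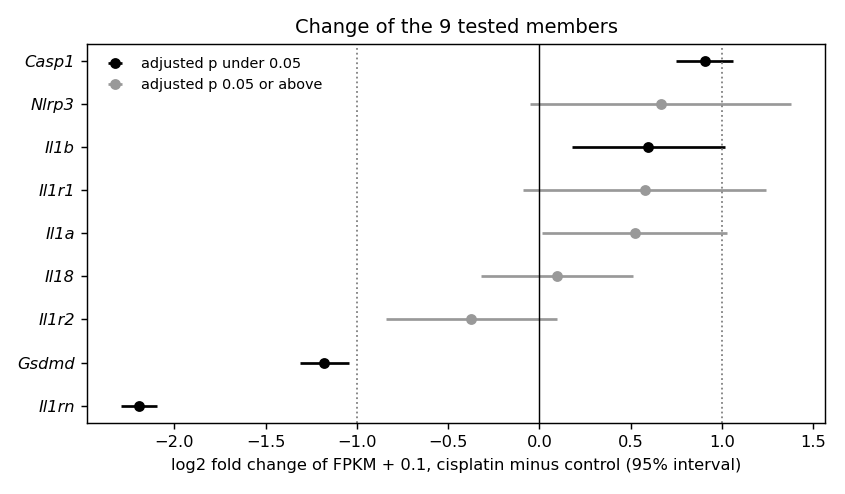
Log2 fold change of FPKM + 0.1, cisplatin minus control, for the 9 tested genes with 95% intervals, where black marks an adjusted p under 0.05 and dotted lines mark 2-fold. Intervals of Il1rn and Gsdmd lie wholly beyond 2-fold lower, that of Casp1 straddles 2-fold higher, and those of Nlrp3, Il1r1, Il18 and Il1r2 include 0.

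The order of levels differed between groups. In control libraries it ran Gsdmd (mean 108 FPKM), Il1rn (25.6), Casp1 (9.34), Il1r2 (1.88), Il1b (1.78), Il18 (1.38), Il1a (0.908 to 1.08), Nlrp3 (0.784), Il1r1 (0.479) and Il33 (0.0571). Neighbours whose libraries overlapped there were Il1r2 and Il1b, Il1b and Il18, and Il1a and Nlrp3. In cisplatin libraries Casp1 (17.6 FPKM) stood above Il1rn (5.52 FPKM), and Il1b (2.69 FPKM) stood apart from the genes below it. From Il1a through Il18, Il1r2 and Nlrp3 to Il1r1 (means of 1.51 to 0.775 FPKM), each gene overlapped the next.

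Ratios within a library, chosen after the values were seen, do not depend on the scale factor of the library. They do not remove differences in the mix of cells, whose part in the ratios was not tested. Il1rn over the sum of Il1a and Il1b, antagonist transcript over agonist transcripts, was 8.74, 11.1 and 8.26 in control and 1.37, 1.37 and 1.22 in cisplatin libraries. The means were 9.35 ± 1.49 and 1.32 ± 0.0863 (SD, n = 3), with no overlap between groups (exact permutation test, two-sided, p = 0.1, the smallest that 3 against 3 libraries can give). Gsdmd over Casp1, pore transcript over protease transcript, was 11.6 ± 0.577 in control and 2.72 ± 0.149 in cisplatin libraries (SD, n = 3, exact permutation p = 0.1). Il1r2 over Il1r1, decoy over signalling receptor, was 3.99 ± 1.22 in control and 1.91 ± 0.580 in cisplatin libraries (SD, n = 3, exact permutation p = 0.1). With 5 ratios examined, the adjusted p was 0.1 for each.

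The scaling between libraries bore on the fold changes. Quantile normalization shifted the median over all tested genes by 0.13 log2 units, and centring each library on its T-cell markers, which assumes that these did not change, shifted it by -0.54. Centring subtracts a constant from each library, so it cannot change where a gene stands relative to the median of all genes. The deposited scale and quantile normalization put Il1rn at -2.22 and -2.25 relative to that median. Gsdmd was at -1.21 and -1.33, Casp1 at 0.88 and 0.85, and Il1b at 0.57 and 0.63 on the same footing. Without that reference, Il1a and Il18 changed sign under T-cell centring, at -0.014 and -0.44 log2 units, and Il1r2 passed as lower at -0.91 (adjusted p = 0.00517). Casp1 was called higher under quantile normalization, at 1.01 log2 units. Il1a, Il1r1 and Nlrp3 passed as higher with quantile normalization (0.70, 0.78 and 0.84 log2 units) and with limma's voom on the rebuilt reads (0.64, 0.75 and 0.82 log2 units).

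**Figure D3:**
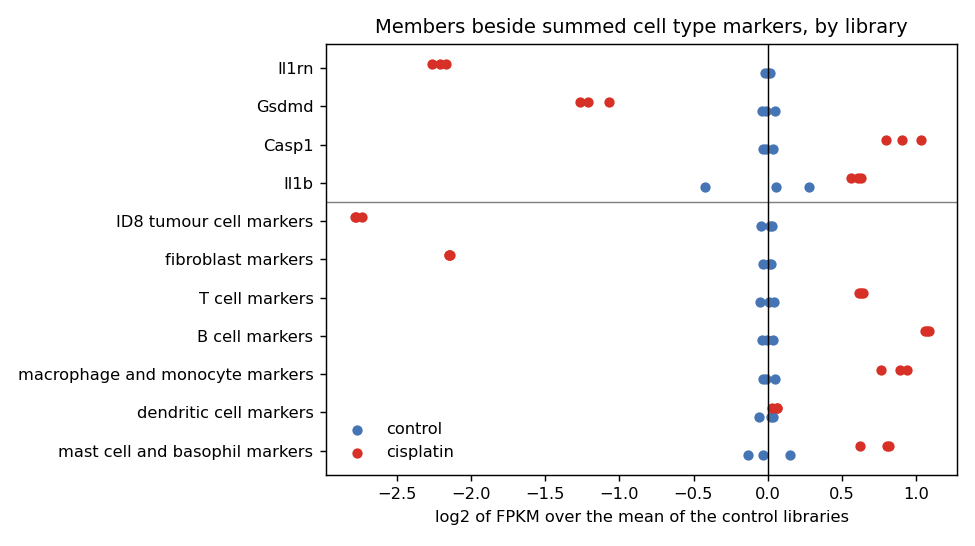
Log2 of each library's FPKM over the control mean for the 4 genes that passed and for the summed FPKM of 7 marker lists, with control libraries in blue and cisplatin libraries in red. Il1rn and Gsdmd lie on the same side of 0 as ID8 and fibroblast markers in cisplatin libraries. Casp1 and Il1b lie there on the same side as the sums of T-cell, B-cell, macrophage and mast cell markers. Single markers of a list need not follow its sum. The dendritic cell groups overlap.

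A further 80 genes of the pathway were examined in 8 lists, and 51 of them were tested. Of these, 20 passed as higher, 13 passed as lower and 18 did not pass, with 1 called higher and 3 called lower. Over all tested genes, 27.5% passed as higher and 29.0% as lower, with 4.11% called higher and 12.8% called lower. The median log2 fold change of the 51 was 0.12, beside 0.03 over all genes. Under T-cell centring 0 passed as higher and 34 as lower, and under quantile normalization 27 and 12. These scalings also moved the median of all tested genes, to -0.508 and 0.162. The shares of all genes that passed under them were not counted, so these counts are not read as a result about the pathway. At the stricter limit for a call, T-cell centring gave 153 of 15874 genes higher and 3524 lower. Quantile normalization gave 979 higher and 1790 lower.

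Among partner receptors, Il1rl1, the IL-33 receptor, showed the largest rise. It measured 0.749, 1.01 and 0.912 FPKM in control and 1.64, 1.64 and 2.15 FPKM in cisplatin libraries, and the groups did not overlap. It rose by 0.95 log2 units (SE 0.18, adjusted p = 0.00418), and under T-cell centring it was at 0.41 and did not pass (adjusted p = 0.0805). The mast cell and basophil marker sum moved in the same direction, though not every marker did. Of 7 tested markers of that list, 4 passed as higher, 1 passed as lower and 2 did not pass. The part of such cells in the rise of Il1rl1 was not tested. The IL-18 receptor chains Il18r1 (0.34 log2 units, adjusted p = 0.0165) and Il18rap (0.49, adjusted p = 0.0176) also rose, but were at -0.20 and -0.05 log2 units under T-cell centring, without passing. Il18bp, a secreted protein that neutralises IL-18, fell by 0.67 on the log2 scale (adjusted p = 0.000182), from 5.14, 5.61 and 5.20 to 3.43, 3.25 and 3.26 FPKM. Il18bp over Il18 was 3.90 ± 0.567 in control and 2.27 ± 0.341 in cisplatin libraries (SD, n = 3, exact permutation p = 0.1). Il1rap, the shared coreceptor of IL-1 and IL-33, differed by 0.05 log2 units (95% interval -0.41 to 0.51, adjusted p = 0.835).

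Il1r1, Il1r2 and their relatives lie in a single cluster at chr1:40074079-40551705 (GRCm38), which spans 478 kb and holds 6 protein-coding genes. Along it, Il1rl1, Il18r1 and Il18rap passed as higher, Il1r2 and Il1r1 did not pass, and Il1rl2 was too low to test. Its level was 0.373 to 0.494 FPKM in control and 0.385 to 0.571 FPKM in cisplatin libraries. Casp1 and Casp4, the intracellular lipopolysaccharide sensor, lie within 38.3 kb at chr9:5298517-5336783. The neighbours moved in opposite directions. Casp4 measured 11.2, 11.5 and 11.6 FPKM in control and 9.27, 7.47 and 8.18 FPKM in cisplatin libraries, and fell by 0.47 on the log2 scale (adjusted p = 0.00254). Casp1 over Casp4 was 0.815 ± 0.0341 in control and 2.13 ± 0.186 in cisplatin libraries (SD, n = 3, exact permutation p = 0.1).

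**Figure D4:**
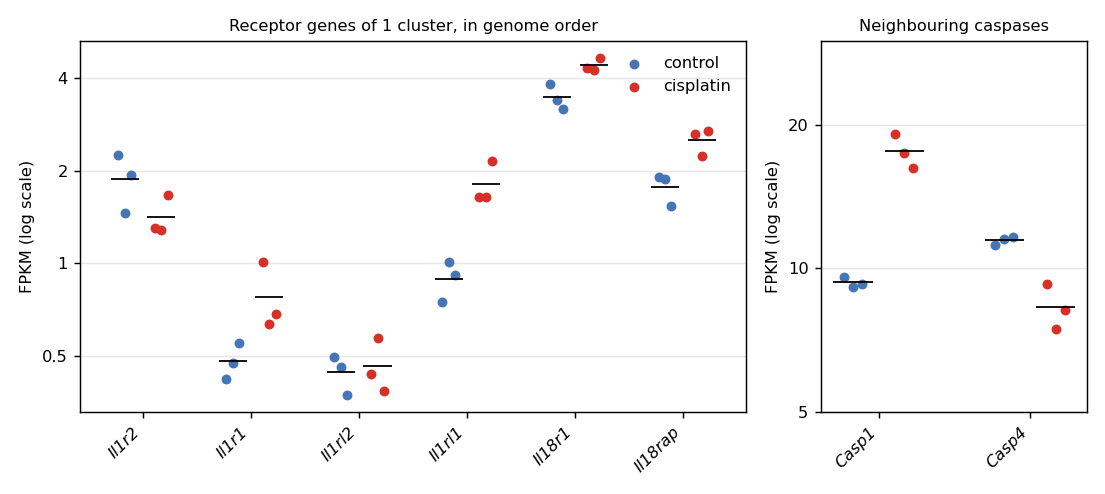
FPKM on log axes for the 6 receptor genes of the chromosome 1 cluster in genome order and for Casp1 and Casp4, with a bar at the mean of each group of 3 libraries. Il1rl1, Il18r1 and Il18rap lie higher in the cisplatin libraries, the Il1rl2 groups overlap, and the caspase pair changes order.

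Of the 8 inflammasome adaptors, caspases and triggers, 4 passed as higher and 2 as lower. Pycard, the adaptor that links sensor to caspase-1, measured 6.06, 5.08 and 5.31 FPKM in control and 8.72, 8.62 and 9.39 FPKM in cisplatin libraries. It rose by 0.69 log2 units (SE 0.08, adjusted p = 0.00034), or 0.16 under T-cell centring, where it did not pass (adjusted p = 0.146). Casp8, an initiator caspase that can also cleave gasdermin D, rose by 0.19 log2 units (adjusted p = 0.0488) but passed as lower under T-cell centring, at -0.35 (adjusted p = 0.00129). Of 12 other inflammasome sensors, 6 were tested and 2 passed as higher. Of 7 other gasdermins and membrane rupture genes only Gsdme and Ninj1 were tested, and Gsdme, a pore protein cut by caspase-3, differed by -0.37 log2 units (95% interval -0.91 to 0.17, adjusted p = 0.207). In the 13 genes of receptor-proximal signalling 4 passed as higher and 4 as lower, and Myd88, the adaptor of IL-1 receptors, rose by 0.19 log2 units (adjusted p = 0.0147) but passed as lower under T-cell centring, at -0.35 (adjusted p = 0.00041). All 5 other IL-1 family ligands, which include the IL-36 cytokines, had at most 3 reads in any library.

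The list of genes that IL-1 induces in stromal and epithelial cells held 19 genes, of which 14 were tested, 5 passed as higher, 5 as lower and 3 were called, all lower. Nos2, inducible nitric oxide synthase, measured 32.6, 31.8 and 32.7 FPKM in control and 4.39, 4.97 and 4.64 FPKM in cisplatin libraries, and fell by 2.77 on the log2 scale (SE 0.05, adjusted p = 1.43e-07). Lcn2, the iron-carrier protein lipocalin 2, fell by 2.22 (SE 0.10, adjusted p = 4.38e-06) from 6.82 to 7.90 FPKM to 1.37 to 1.62 FPKM. Ptgs2, the inducible cyclooxygenase, fell by 1.51 (SE 0.07, adjusted p = 5.93e-06) from 21.0 to 24.5 FPKM to 7.45 to 8.36 FPKM. In all 3 the groups were widely separated, and all were called under every alternative. ID8 markers moved with them, and their part was not tested.

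Of 9 T-cell cytokines that IL-1, IL-18 or IL-33 can raise, 2 were tested. Csf2, the growth factor GM-CSF, measured 0.375, 0.750 and 0.652 FPKM in control and 1.20, 1.62 and 1.39 FPKM in cisplatin libraries, on 9 to 43 reads. It rose by 1.15 log2 units (SE 0.28, adjusted p = 0.0108), and it was no longer called without control library 1 or with a pseudocount of 1. Under T-cell centring it was at 0.61 log2 units and did not pass (adjusted p = 0.0788). Il22 and Il9 had 0 reads in all 6 libraries, where 3 reads per library is the limit that such a count allows.

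**Figure D5:**
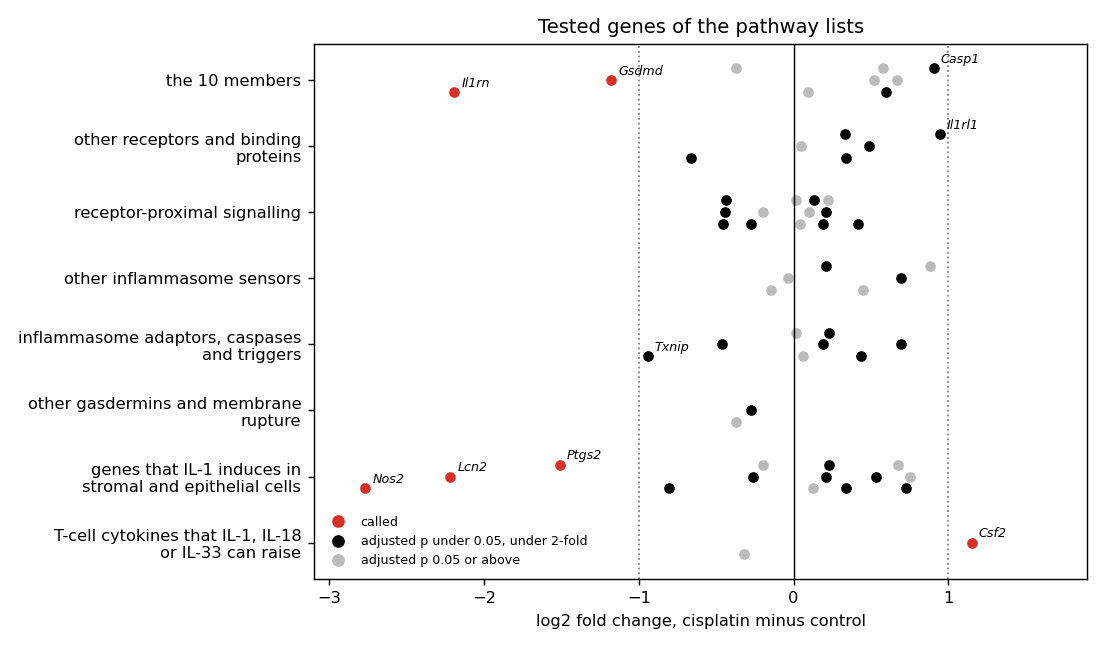
Log2 fold change, cisplatin minus control, of each tested gene by list, with red for called genes, black for an adjusted p under 0.05 below 2-fold and grey for the rest, and dotted lines at 2-fold. Most genes lie within 2-fold on either side of 0, whereas Nos2, Lcn2, Ptgs2, Il1rn and Gsdmd lie beyond it on the lower side and Csf2 on the higher side.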

How the data were processed

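RNA-seq of 6 libraries was used, 3 per group, with groups and replicate numbers taken from the sample labels. The authors deposited FPKM per gene. The submitters' processing notes list fastp, HISAT2 2.0.5 and featureCounts 1.5.0-p3 with mm10, whereas the study's methods name LifeScope for alignment and counting. Strand use in counting is not given in the sources used here. Gene coordinates were the same as in GENCODE M21 (GRCm38) for 53499 of 54409 shared genes. Multiplied by gene length, 100% of the FPKM above 0 were whole multiples of 1 step per library (tolerance 0.1 read), so reads were rebuilt, totalling 30606569 to 32169496 per library. They cover counting error only. The denominators behind the FPKM were 0.976 to 0.982 times these reads in control and 1.03 to 1.05 times in cisplatin libraries. Replicates differed by more than sampling noise.

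Groups were compared on log2(FPKM + 0.1), which understates changes of low genes, with limma 3.58.1 (lmFit, eBayes with trend) in R 4.3.3, over the 15874 genes averaging 0.5 FPKM or more, of 33456 with any read. Benjamini-Hochberg adjusted p-values cover all genes tested. Calls needed an adjusted p under 0.05 and a 2-fold change, limits the authors used with DESeq2 on counts not used here. Ratios were compared by a two-sided exact permutation test with scipy 1.17.1. Scripts used python 3.11.15, pandas 2.3.3, numpy 2.4.6 and matplotlib 3.10.9, and the fit was tested on simulated data.

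The members, 8 pathway lists and 9 marker lists were chosen with earlier results of these data known. Named were all members and the called genes of each pathway list (the 4 with the largest change where more were called). Also named were 10 partner genes whatever their values and a few genes of the marker lists. Alternatives were pseudocounts of 1 and 0.01, no filter or a mean of 2 FPKM, median-of-ratios, quantile and T-cell marker scaling, no variance trend, voom on rebuilt reads, leaving out each library, and a replicate block. The marker lists of neutrophils, dendritic cells, mast cells and basophils, fibroblasts and NK cells had sums of 2.55 to 3.64, 6.49 to 6.91, 21.6 to 26.2, 41.0 to 42.6 and 2.85 to 2.95 FPKM in control libraries, and of 4.95 to 6.21, 6.89 to 7.06, 36.3 to 41.6, 9.44 to 9.50 and 4.08 to 4.69 FPKM in cisplatin libraries.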

Additional observations from a re-analysis of the deposited data

How the results depend on the processing

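Il1rn, Gsdmd and Casp1 kept their direction and passed under all 16 alternatives, with ranges of -2.73 to -2.03, -1.71 to -1.10 and 0.37 to 1.01 log2 units. Il1rn and Gsdmd were called under all 16, and quantile normalization raised the members called from 2 to 3 by adding Casp1. Il1b passed under 12 of 16, with adjusted p from 0.0056 to 0.77. Il18 changed sign under T-cell centring (-0.44) and Il1a as well (-0.014). Leaving out 1 library at a time gave Il18 from -0.011 to 0.22, the former without control replicate 3. Of all genes, 2687 were called, against 1762 with a pseudocount of 1 and 1783 with a minimum mean of 2 FPKM, where 11587 genes were tested. The share called lower was 75.7%, against 64.6% with quantile normalization and 95.8% under T-cell centring. Pathway genes called were 4, against 7 under T-cell centring (Casp4, Il18bp, Lcn2, Mmp13, Nos2, Ptgs2 and Txnip) and 11 with voom, which tested 61 pathway genes in place of 51. The calls over all genes rose as well, from 2687 of 15874 to 3677 of 15874 under T-cell centring and 3550 of 18541 with voom. Of the pathway genes called with voom, Ifng, Il17a, Nlrp10, Nlrp1b and Saa3 were below the limit for testing in the main fit. Il1rl1 and Mefv were tested in the main fit and not called. The cause of the other shifts was not tested. The same replicate numbers occur in both groups, but libraries sharing a number did not deviate together (correlations 0.0229, -0.063 and -0.0207), and nothing says that they share a mouse. With the replicate block 2662 genes, 2 members and 4 pathway genes were called. Few reads lay behind Il33 (2 to 31), Csf2 (9 to 43) and Il18 (37 to 55), which limits their precision.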

Other observations

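A pair of pathway genes that fell below the limit for testing, chosen after their values were seen, stood out by level. Nlrp10, an NLR protein without the leucine-rich repeats of its relatives, measured 0.673, 0.748 and 0.810 FPKM in control and 0.0412, 0.121 and 0.123 FPKM in cisplatin libraries, on 91 to 112 and 6 to 18 reads. In the limma fit over all genes with any read it differed by -2.14 log2 units (SE 0.34, adjusted p = 0.00364). Saa3, an acute-phase serum amyloid, measured 0.946, 0.909 and 0.750 FPKM in control and 0.0949, 0.0695 and 0.0710 FPKM in cisplatin libraries, on 60 to 74 and 6 to 8 reads. It differed by -2.44 log2 units (SE 0.30, adjusted p = 0.0011) in the same fit. Ifng, which encodes interferon-γ, rested on 8 to 11 reads in control and 18 to 43 reads in cisplatin libraries and differed by 1.23 log2 units (95% interval 0.34 to 2.12, adjusted p = 0.0536).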
